A study of Homo sapiens with 6 samples.

Results

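The genes described here encode components of the tight junction. They were chosen by symbol: the claudins CLDN1, CLDN4, CLDN7, CLDN12 and CLDN15, the MARVEL proteins OCLN and MARVELD2, the junctional adhesion molecule F11R and the scaffold TJP1. Of these 9 symbols, 6 had counts among the 12703 genes of the count table (CLDN1, CLDN4, CLDN12, CLDN15, F11R and TJP1), and CLDN7, OCLN and MARVELD2 were not analysed here. The RNA came from PC3, an established human prostate cancer cell line, in 6 libraries. In the control group, labelled Lenti-ORF control, 3 PC3 lines carried negative-control lentiviral particles, and in the other group 3 PC3 lines stably overexpressed GCNT1 from lentivirus. The GCNT1 enzyme adds the sugar that opens the core 2 branch on O-linked glycans. All 6 lines had therefore been transduced, and each group was measured in stable derivatives of a single parental cell line, with no untransduced PC3 library analysed here. In RNA from a whole culture, fewer cells that express a gene and less of its RNA per cell cannot be told apart.

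Tight junctions seal the space between neighbouring epithelial cells near their apical edge. Claudins are small membrane proteins that span the membrane several times and form the strands of the junction, and the mix of claudins in a cell sets which ions and solutes pass between cells: some seal the space, others form charge-selective pores. Occludin and tricellulin join the strands, junctional adhesion molecules bind across the cell contact, and zonula occludens proteins tie the membrane proteins to actin.

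Total counts ranged from 11392213 to 13825704 per library. Levels are also given in CPM, the count as a share of its library on a fixed scale, with library totals adjusted for composition by TMM, and 3 counts corresponded to between 0.213 and 0.259 CPM. GCNT1, the gene that had been overexpressed, had 9, 13 and 8 counts in the control libraries and 13, 16 and 35 in the overexpressing libraries. Its level was 0.812 ± 0.202 CPM (SD, n = 3) against 1.59 ± 0.772 CPM (SD, n = 3), with a log2 fold change of 0.98 (SE 0.37, edgeR adjusted p = 0.0362). Without overexpressing library 3 the log2 fold change was 0.49 (edgeR adjusted p = 0.269), and the adjusted p was also above the threshold without control library 1 (0.092, edgeR) or control library 3 (0.0944, edgeR) and with DESeq2 (0.0821) or glmTreat, which tests against a fold threshold (0.396). Which GCNT1 sequence the lentivirus carried is not given in the sources used here, so these counts may not measure the RNA made from it. The 6 markers examined for PC3 were all counted and did not move together. The epithelial keratin KRT19 was called lower (369 to 230 CPM, log2 fold change -0.68), KRT18 and KRT8 were at 253 and 222 CPM in control and 222 and 202 CPM with GCNT1, and EPCAM and CD44 had overlapping groups. VIM, a mesenchymal gene that PC3 also expresses, went from 1130 to 1390 CPM (log2 fold change 0.30), and the summed level of the 6 was 2400 to 2530 CPM in control and 2460 to 2660 CPM with GCNT1, much of it from VIM. The part of these differences in the junction gene values was not tested.

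A gene was called changed at a Benjamini-Hochberg adjusted p of 0.05 in edgeR's quasi-likelihood test together with an absolute log2 fold change of 0.58 (1.49-fold). By this rule 1 of the 6 tight junction genes changed: CLDN15 rose. Over all genes 19.3% were called, 8.28% higher and 11.1% lower, so 1 of 6 (16.7%) lay close to the background. At the adjusted p alone, CLDN15 was higher, CLDN1, CLDN4 and F11R were lower, and CLDN12 and TJP1 did not pass. Those 4 of 6 genes (66.7%) compare with 57.6% of all genes, 28.3% higher and 29.3% lower. The control and overexpressing values did not overlap for the same 4 genes, against 62.5% of all genes. The median log2 fold change of the 6 genes was -0.15, and that of all genes was 0. As a group, the 6 genes therefore passed each threshold about as often as genes in general, and what follows describes each gene by itself.

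**Figure D1:**
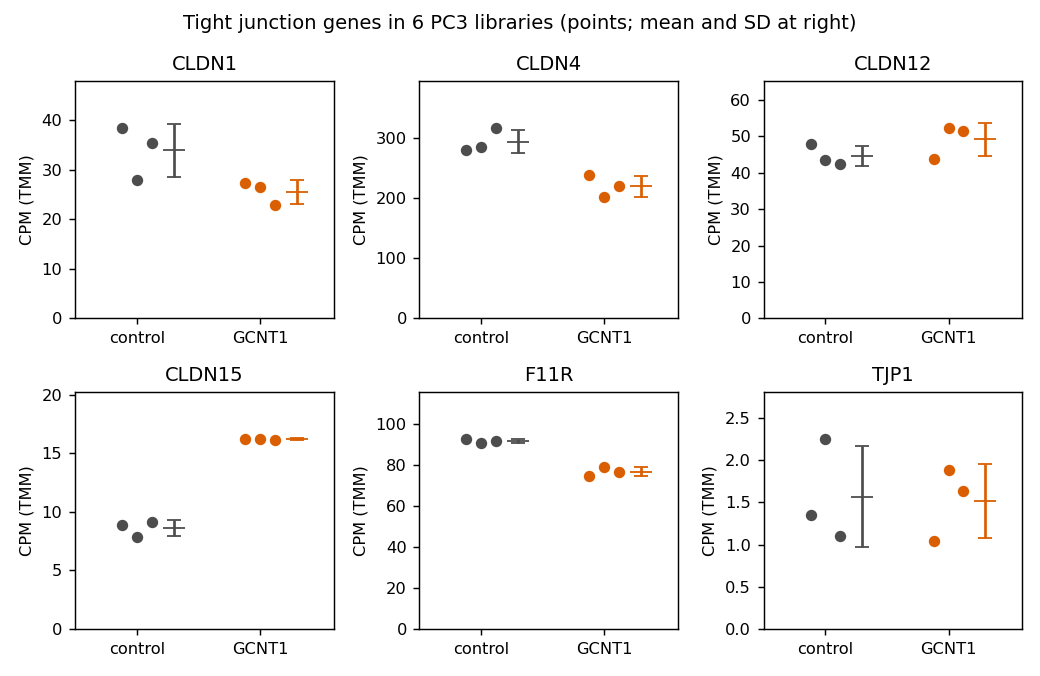
Each panel plots the TMM-scaled CPM (vertical axis, from 0) of 1 gene in the 3 control libraries (grey points) and the 3 GCNT1-overexpressing libraries (orange points), with the mean and SD to the right of each group. CLDN15 sat at 7.87 to 9.14 CPM in control and 16.1 to 16.2 CPM in overexpressing libraries, CLDN1, CLDN4 and F11R were lower in every overexpressing library, and the groups overlapped for CLDN12 and TJP1.

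CLDN15 encodes claudin-15, which forms cation-selective pores and is best known from the intestine. The gene lies on the minus strand of hg38 at chr7:101232092-101238820, and its MANE transcript has 5 exons and 1224 bases. CLDN15 had 112, 98 and 108 counts in control libraries 1 to 3, which is 8.9, 7.87 and 9.14 CPM. In overexpressing libraries 1 to 3 it had 188, 222 and 227 counts, which is 16.2, 16.2 and 16.1 CPM. Every overexpressing library was above every control library, and the overexpressing libraries were almost identical to one another. The mean rose from 8.64 ± 0.673 CPM (SD, n = 3) to 16.2 ± 0.078 CPM (SD, n = 3), a 1.87-fold increase. The log2 fold change was 0.90 (SE 0.10, 95% interval 0.70 to 1.11, edgeR adjusted p = 3.89e-06), and the call was kept in all 14 alternative analyses, in which the log2 fold change lay between 0.84 and 0.96. Over the 50 nearest counted genes the median was 0.05 on the same scale.

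CLDN4 encodes claudin-4, a sealing claudin of many simple epithelia, and was by far the most abundant of the 6 genes. It lies on the plus strand at chr7:73799542-73832690, on the same chromosome as CLDN12 and CLDN15, and its MANE transcript is a single exon of 1695 bases. It had 3523, 3545 and 3725 counts in the control libraries (280, 285 and 315 CPM). In the overexpressing libraries it had 2745, 2770 and 3089 counts (237, 202 and 219 CPM). The groups did not overlap. The mean was 293 ± 19.1 CPM (SD, n = 3) in control and 219 ± 17.8 CPM (SD, n = 3) with GCNT1, 1.34-fold lower. The log2 fold change of -0.42 (SE 0.06, 95% interval -0.56 to -0.28, edgeR adjusted p = 9.05e-05) passed the adjusted p but not the fold threshold, so CLDN4 was not called.

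CLDN1 encodes claudin-1, a sealing claudin that the barrier of the skin depends on. It lies on the minus strand at chr3:190305707-190322446, with a MANE transcript of 4 exons and 3446 bases. Its counts were 482, 348 and 418 in the control libraries, or 38.3, 27.9 and 35.4 CPM. In the overexpressing libraries they were 315, 364 and 321, or 27.2, 26.5 and 22.8 CPM. The groups were separated only narrowly, because control library 2 was close to overexpressing library 1. The level went from 33.9 ± 5.33 CPM to 25.5 ± 2.4 CPM (SD, n = 3 each), 1.33-fold lower, with a log2 fold change of -0.41 (SE 0.11, 95% interval -0.65 to -0.18, edgeR adjusted p = 0.00574). CLDN1 was likewise below the adjusted p threshold and short of the fold threshold.

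The 250 bases that precede the RefSeq start of these 3 claudin genes (GRCh38.p14) are printed to set the promoter of the gene that rose beside those of the abundant genes that were lower. Capitals mark the E-box CANNTG, searched on both strands, which is its own reverse complement and includes the form CAGGTG bound by ZEB and SNAI repressors. Each run reads 5′ to 3′ on the gene's own strand, from chr7:101237803-101238052 (minus) for CLDN15, chr7:73830746-73830995 (plus) for CLDN4 and chr3:190322447-190322696 (minus) for CLDN1. The RefSeq starts of CLDN15 and CLDN4 lie inside the GENCODE spans given above.
CLDN15: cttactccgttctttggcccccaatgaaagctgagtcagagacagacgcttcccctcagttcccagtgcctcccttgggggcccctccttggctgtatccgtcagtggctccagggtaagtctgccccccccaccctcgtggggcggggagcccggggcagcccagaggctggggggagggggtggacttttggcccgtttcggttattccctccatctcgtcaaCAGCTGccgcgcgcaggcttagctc
CLDN4: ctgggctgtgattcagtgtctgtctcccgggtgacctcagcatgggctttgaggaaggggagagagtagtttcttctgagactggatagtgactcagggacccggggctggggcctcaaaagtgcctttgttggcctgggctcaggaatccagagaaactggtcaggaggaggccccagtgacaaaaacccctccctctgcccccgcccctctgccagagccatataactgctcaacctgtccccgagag
CLDN1: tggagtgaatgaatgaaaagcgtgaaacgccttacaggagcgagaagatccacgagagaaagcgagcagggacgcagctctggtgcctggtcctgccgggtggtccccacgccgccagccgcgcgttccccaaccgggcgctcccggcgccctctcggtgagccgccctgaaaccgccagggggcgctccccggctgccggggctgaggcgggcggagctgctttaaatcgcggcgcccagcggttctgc
The CLDN15 window held 1 E-box, of the form CAGCTG, which begins 25 bases before the start, and no CAGGTG. The CLDN4 and CLDN1 windows held neither motif. Among 35116 RefSeq promoter windows of the same length, 61.8% held CANNTG on either strand and 17.5% held CAGGTG. GC content was 64.8% for CLDN15, 58.8% for CLDN4 and 68.8% for CLDN1, with a median of 58% over all windows. These are matches of letters, and binding at them was not measured.

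CLDN12 encodes claudin-12, an atypical claudin without the C-terminal motif by which most claudins bind PDZ-domain scaffolds. It lies on the plus strand at chr7:90383721-90513402, where its annotated span overlaps GTPBP10, CDK14 and PTTG1IP2 on the same strand, so reads in shared sequence are uncertain. CLDN12 had 602, 541 and 502 counts in the control libraries (47.8, 43.4 and 42.5 CPM). It had 508, 717 and 725 in the overexpressing libraries (43.9, 52.2 and 51.4 CPM). Overexpressing library 1 lay within the control range and the other 2 above it. The means were 44.6 ± 2.86 and 49.2 ± 4.58 CPM (SD, n = 3 each), with a log2 fold change of 0.14 (SE 0.08, 95% interval -0.02 to 0.31, edgeR adjusted p = 0.129). Without overexpressing library 1 the log2 fold change was 0.22 and passed the adjusted p (0.0131, edgeR), as it did with library size scaling (0.20, adjusted p = 0.0443, edgeR), but neither value reached the fold threshold.

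F11R encodes junctional adhesion molecule A, an immunoglobulin-like protein that is among the first to gather at a new cell contact. It lies on the minus strand at chr1:160995211-161021343, with a MANE transcript of 10 exons and 4639 bases. F11R had 1168, 1134 and 1086 counts in the control libraries (92.8, 91.1 and 91.9 CPM). It had 864, 1087 and 1084 in the overexpressing libraries (74.7, 79.1 and 76.8 CPM). The libraries of each group lay close together and the groups were well apart. The mean went from 91.9 ± 0.869 to 76.9 ± 2.24 CPM (SD, n = 3 each), 1.2-fold lower, with a log2 fold change of -0.26 (SE 0.05, 95% interval -0.37 to -0.14, edgeR adjusted p = 0.000922). The difference was therefore precise and small, and its whole interval lay within the fold threshold.

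TJP1 encodes ZO-1, the scaffold that links claudins and occludin to actin. It lies on the minus strand at chr15:29699367-29968915, with a MANE transcript of 28 exons and 7190 bases. TJP1 had 17, 28 and 13 counts in the control libraries (1.35, 2.25 and 1.1 CPM). It had 12, 26 and 23 in the overexpressing libraries (1.04, 1.89 and 1.63 CPM). The groups overlapped throughout, at 1.57 ± 0.604 and 1.52 ± 0.438 CPM (SD, n = 3 each). The log2 fold change was -0.03 (SE 0.31, 95% interval -0.69 to 0.64, edgeR adjusted p = 0.949), an interval that includes changes beyond the fold threshold in both directions, so a difference of that size was not detectable at this depth.

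The low count of TJP1 is set here beside the sequence of its transcript. Reads were 75 bases long, and every 75-base window inside the exons of each listed gene's MANE transcript was looked up in hg38, including its 261 alternative sequences. For CLDN1, CLDN4, CLDN12 and CLDN15, 100% of windows occurred once. For F11R the share was 99.6%, whereas for TJP1 it was 4.07%, and the other 95.93% of TJP1 windows had an exact copy on an alternative sequence and none on a primary chromosome. The window below, from coding sequence in exon 21 at chr15:29718665-29718739 (hg38, minus strand), is shown as an example, and the same letters stand at positions 2002796 to 2002870 of the alternative sequence 15_KI270905v1_alt.
TJP1 exon 21: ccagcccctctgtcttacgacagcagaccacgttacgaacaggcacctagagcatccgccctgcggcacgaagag
OCLN and MARVELD2 had 8.15% and 4.89% of windows occurring once, and CLDN7 had 100%. Whether the mapping index held the alternative sequences, and how reads with several positions were counted, is not given in the sources used here, so the TJP1 count is uncertain and its level relative to other genes was not tested.

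**Figure D2:**
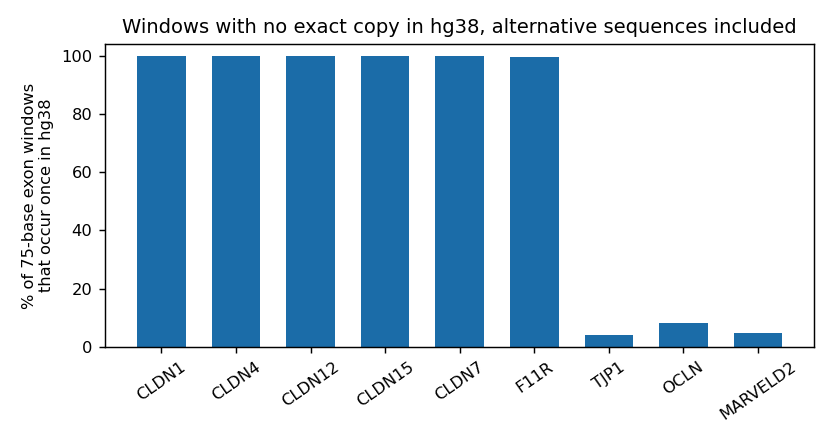
Bars give, for each of the 9 listed genes, the percentage of 75-base windows within exons of the MANE transcript that occur once in hg38 with its alternative sequences included (vertical axis, 0 to 100%). The claudin genes stand at 100% and F11R at 99.6%, while TJP1, OCLN and MARVELD2 stand at 4.07%, 8.15% and 4.89%.

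To compare levels between genes, counts were divided by the length of the MANE transcript as well as by depth (RPKM). On this scale the control order was CLDN4 at 173 ± 11.2 RPKM, F11R at 19.8 ± 0.187, CLDN12 at 12.6 ± 0.81, CLDN1 at 9.83 ± 1.55, CLDN15 at 7.05 ± 0.549 and TJP1 at 0.218 ± 0.084 (SD, n = 3 each). No neighbours among the first 5 overlapped between libraries, and the place of TJP1 is uncertain, since its count is. With GCNT1 the order was CLDN4 at 129 ± 10.5 RPKM, F11R at 16.6 ± 0.482, CLDN12 at 13.9 ± 1.3, CLDN15 at 13.2 ± 0.0637, CLDN1 at 7.40 ± 0.696 and TJP1 at 0.211 ± 0.061 (SD, n = 3 each). CLDN15 thus stood below CLDN1 in every control library and above it in every overexpressing library, where its level overlapped that of CLDN12.

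The share of each claudin in the claudin transcripts was taken from the same RPKM values, summed over the 8 claudin genes with counts: the 4 above and CLDN3, CLDN11, CLDN14 and CLDN23. The summed claudin level was 217, 215 and 241 RPKM in the control libraries and 203, 177 and 190 RPKM in the overexpressing libraries. CLDN4 made up 76.2%, 78.2% and 77.2% of the sum in control and 68.9%, 67.0% and 68.1% with GCNT1. CLDN15 made up 3.35%, 2.99% and 3.1% in control and 6.53%, 7.44% and 6.93% with GCNT1. These groups did not overlap, and each gave an exact two-sided permutation p of 0.1, the smallest that 3 against 3 libraries allows, so no such comparison can reach 0.05 here. The share of CLDN12 was 5.66 ± 0.629% in control and 7.37 ± 1.13% with GCNT1 (exact permutation p = 0.2), and that of CLDN1 was 4.39 ± 0.685% and 3.90 ± 0.427% (exact permutation p = 0.5, SD, n = 3 each). For both, the libraries overlapped.

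**Figure D3:**
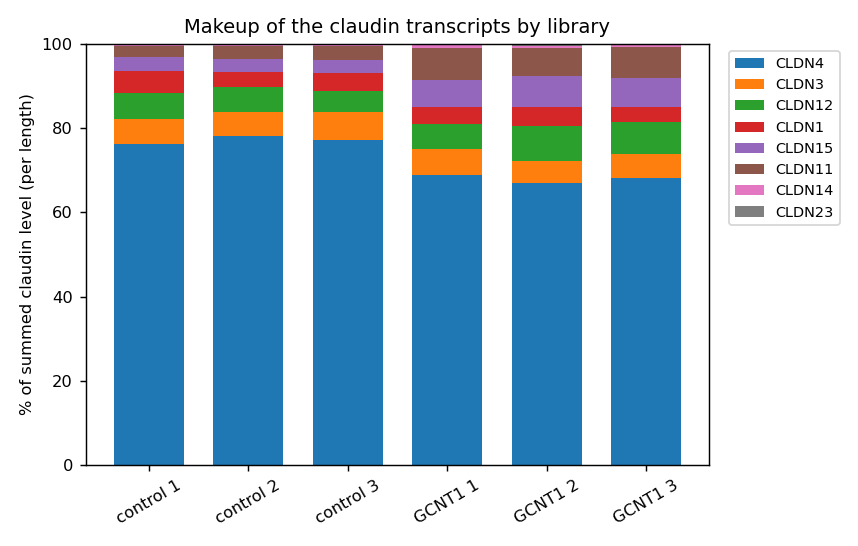
Stacked bars show, for each of the 6 libraries, the percentage of the summed length-scaled claudin level (vertical axis, 0 to 100%) contributed by each of the 8 claudin genes. CLDN4 took 76.2% to 78.2% of each control bar and 67.0% to 68.9% of each overexpressing bar, and CLDN15 and CLDN11 took more of the overexpressing bars.

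Ratios within a library do not depend on its scaling factor. The ratio of CLDN4 to CLDN15, per length, was 22.7, 26.1 and 24.9 in the control libraries and 10.5, 9.01 and 9.83 in the overexpressing libraries. Its mean went from 24.6 ± 1.73 to 9.79 ± 0.767 (SD, n = 3 each), with no overlap and an exact permutation p of 0.1. CLDN1 to CLDN15 went from 1.39 ± 0.134 to 0.56 ± 0.0503, also without overlap (SD, n = 3 each, exact permutation p = 0.1). F11R to CLDN4, both lower with GCNT1, gave overlapping ratios of 0.115 ± 0.00752 and 0.129 ± 0.0142 (SD, n = 3 each, exact permutation p = 0.3).

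Of 19 other claudin symbols listed, 4 were counted, and 2 of these, CLDN11 and CLDN14, were called higher. That is 50% of those counted, against 8.28% of all genes called higher. CLDN11, the claudin of myelin and of the Sertoli cell barrier, had 205, 223 and 259 counts in control and 481, 441 and 537 with GCNT1. It rose from 18.7 ± 2.89 to 37.2 ± 4.78 CPM (SD, n = 3 each), with a log2 fold change of 0.99 (SE 0.11, edgeR adjusted p = 8.41e-06), and its share of the claudin level went from 3.02 ± 0.288% to 7.08 ± 0.459% (SD, n = 3 each, exact permutation p = 0.1). CLDN14, a claudin known from the inner ear, had 13, 17 and 17 counts in control and 33, 26 and 29 with GCNT1, a log2 fold change of 0.81 (SE 0.25, edgeR adjusted p = 0.0144). Its call was lost without control library 1 (0.0572) or overexpressing library 1 (0.0573) and with DESeq2 (0.0618) or glmTreat (0.457). CLDN3, a sealing claudin like CLDN4, had 205, 196 and 239 counts in control and 182, 165 and 196 with GCNT1. Its CPM values were lower in each overexpressing library, and its log2 fold change was -0.33 (SE 0.12, edgeR adjusted p = 0.0302), short of the fold threshold. CLDN23 had 11, 10 and 11 counts in control and 16, 21 and 14 with GCNT1, with a log2 fold change of 0.57 (SE 0.29, edgeR adjusted p = 0.112). Before TMM scaling, every counted gene had at least 1.01 CPM in 3 libraries, and CLDN23 met this through its overexpressing libraries alone.

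**Figure D4:**
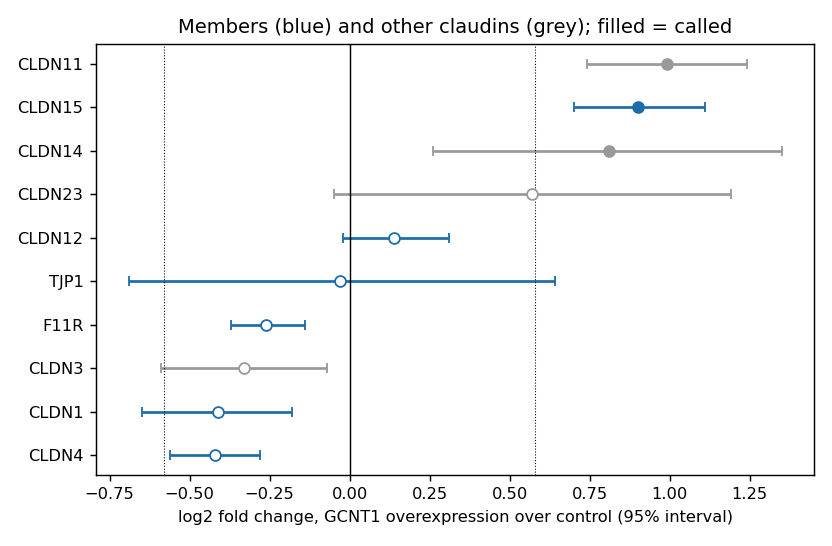
The horizontal axis gives the log2 fold change of GCNT1 overexpression over control with its 95% interval, for the 6 chosen genes (blue) and the 4 other counted claudins (grey), filled where the gene was called, and dotted lines mark the fold threshold of 0.58. CLDN15 at 0.90 and CLDN11 at 0.99 have intervals wholly above the threshold, CLDN4, CLDN1 and F11R lie between -0.42 and -0.26, and the interval of TJP1 spans both thresholds.

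Genes that work with claudins were then read from 8 lists, the other claudins among them. Of 100 listed symbols 67 were counted, and 18 of these were called (26.9%), 5 higher and 13 lower, against 19.3% of all genes. At the adjusted p alone 40 of 67 passed (59.7%, against 57.6%), 13 higher and 27 lower, and the median log2 fold change was -0.10. No test was made of the lists against other genes.

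Among other junction membrane proteins 4 of 11 were counted, and 3 were called lower (75%, against 11.1% of all genes called lower). ESAM, an adhesion molecule of endothelial cells and platelets related to F11R, had 495, 452 and 541 counts in control and 96, 124 and 136 with GCNT1, a log2 fold change of -2.16 (SE 0.11, edgeR adjusted p = 2.24e-09). Every overexpressing library was far below the control range. LSR, also called angulin-1, which recruits tricellulin to corners where cells meet, had 57, 71 and 83 counts in control and 23, 37 and 35 with GCNT1 (log2 fold change -1.25, SE 0.20, edgeR adjusted p = 0.000139). JAM3, a junctional adhesion molecule, had 24, 33 and 18 against 6, 15 and 12 counts (log2 fold change -1.27, SE 0.31, edgeR adjusted p = 0.00337), a call lost with glmTreat (adjusted p = 0.0599, edgeR). CXADR, the virus receptor that also sits at tight junctions, had 200, 186 and 166 against 133, 181 and 187 counts (log2 fold change -0.24, edgeR adjusted p = 0.0483), and was not called. Genes near ESAM and JAM3, both on chromosome 11, were lower as well, with median log2 fold changes of -0.42 and -0.36 over the 50 nearest genes. Near LSR that median was 0.28. ESAM is a gene of endothelial cells, and of 12 markers of blood, endothelial and stromal cells 4 were counted, with summed levels of 222 to 263 CPM in control and 131 to 138 CPM with GCNT1. In that list the endothelial gene PECAM1 rose (log2 fold change 1.31, 1.77 to 4.43 CPM), COL1A1 and COL3A1 fell (-0.77 and -1.94) and CD68 was at -0.09. The part of such expression in the ESAM value was not tested.

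Of 12 cytoplasmic scaffold genes 10 were counted. CGN alone was called, lower (10%, against 19.3% of all genes called). At the adjusted p alone 6 of the 10 passed (60%, against 57.6% of all genes), and the median log2 fold change was -0.15. CGN encodes cingulin, which links ZO proteins to the cytoskeleton, and had 75, 84 and 83 counts in control and 53, 49 and 60 with GCNT1 (log2 fold change -0.67, SE 0.15, edgeR adjusted p = 0.00148). The groups did not overlap, but without overexpressing library 2 the log2 fold change was -0.57, under the fold threshold. All 11 polarity genes were counted, with 2 called, both lower (18.2%, against 19.3% of all genes called). Their median log2 fold change was -0.08. PRKCZ, the atypical protein kinase C of the PAR complex, had 562, 603 and 543 counts in control and 334, 356 and 400 with GCNT1 (log2 fold change -0.74, SE 0.07, edgeR adjusted p = 1.23e-06), while its 50 nearest genes had a median of -0.34. LIN7A, a small PDZ protein of the Crumbs complex, had 27, 29 and 15 counts against 2, 3 and 3, a ratio of 9.49 (95% exact Poisson interval 4.56 to 22.8, counting error only, edgeR adjusted p = 1.78e-05). It too met the count filter through 1 group alone, the control libraries, so its test is no independent sign of a difference. The 50 nearest genes of LIN7A had a median of 0.23.

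All 16 signalling genes were counted, 1 called higher and 3 lower (25%, against 19.3% of all genes called). Their median log2 fold change was 0.06. AMOTL2, an angiomotin that binds polarity proteins, had 604, 634 and 581 counts in control and 1177, 1472 and 1204 with GCNT1, a rise of 0.99 on the log2 scale (SE 0.08, edgeR adjusted p = 2.97e-07). Its relative AMOT went the other way, with 382, 404 and 338 against 231, 294 and 272 counts (log2 fold change -0.59, SE 0.08, edgeR adjusted p = 3.1e-05). That call sat at the fold threshold, and the log2 fold change was -0.53 with library size scaling, -0.54 without control library 2 and -0.56 without overexpressing library 3. The 2 other calls were kinases that drive contraction of the actomyosin ring. MYLK, the myosin light chain kinase, had 981, 1057 and 824 against 506, 652 and 647 counts (log2 fold change -0.76, SE 0.07, edgeR adjusted p = 1.71e-06). ROCK2 had 2540, 2277 and 2130 against 881, 1337 and 1248 counts (log2 fold change -1.11, SE 0.08, edgeR adjusted p = 8.4e-08). The 50 nearest genes of ROCK2 had a median of -0.50, and those of MYLK and AMOT had medians of 0.17 and 0.12. The related ROCK1 had a log2 fold change of 0.10 and overlapping groups.

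Of 6 genes for claudin stabilisers and surface proteases or their inhibitors, 4 were counted. SPINT2, an inhibitor of membrane serine proteases, had 2138, 2065 and 2139 counts in control and 1182, 1242 and 1278 with GCNT1, and fell by 0.87 on the log2 scale (SE 0.06, edgeR adjusted p = 7.23e-08). EPCAM, which binds claudin-1 and claudin-7 and keeps them from breakdown, had overlapping groups and a log2 fold change of 0.09.

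At the adherens junction, the belt beneath the tight junction, 8 of 10 genes were counted. Of these 1 was called, lower (12.5%, against 19.3% of all genes called), and the median log2 fold change was -0.25. CDH1, which encodes E-cadherin, had 56, 43 and 34 counts in control and 15, 14 and 14 with GCNT1 (log2 fold change -1.71, SE 0.24, edgeR adjusted p = 4.74e-05). Among 10 counted of 15 regulators, 1 was called higher and 2 lower (30%, against 19.3% of all genes called), with a median of -0.19. ZEB2, a repressor of CDH1 and of claudin genes, had 24, 17 and 11 counts in control and 40, 49 and 67 with GCNT1 (log2 fold change 1.48, SE 0.25, edgeR adjusted p = 0.000197). ELF3, an epithelial ETS factor, had 85, 105 and 83 against 57, 58 and 61 counts (log2 fold change -0.73, SE 0.14, edgeR adjusted p = 0.000679), a call lost with glmTreat (adjusted p = 0.372, edgeR). CDX2, the intestinal homeobox factor, had 19, 29 and 31 counts in control and none in any overexpressing library, at least 9.36-fold lower against a floor of 3 counts in each overexpressing library (edgeR adjusted p = 6.11e-06). CDX2 met the count filter through its control libraries alone, so a difference was built into its being counted. ZEB1, SNAI1, SNAI2 and GRHL1 were not called, with log2 fold changes from -0.28 to -0.19 and overlapping groups, although ZEB1 passed the adjusted p alone (0.0489, edgeR). The other uncalled regulators were TCF3 at -0.10, TWIST1 at 0.09 and KLF4 at 0.18. Of these KLF4 passed the adjusted p alone (0.0379, edgeR).

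**Figure D5:**
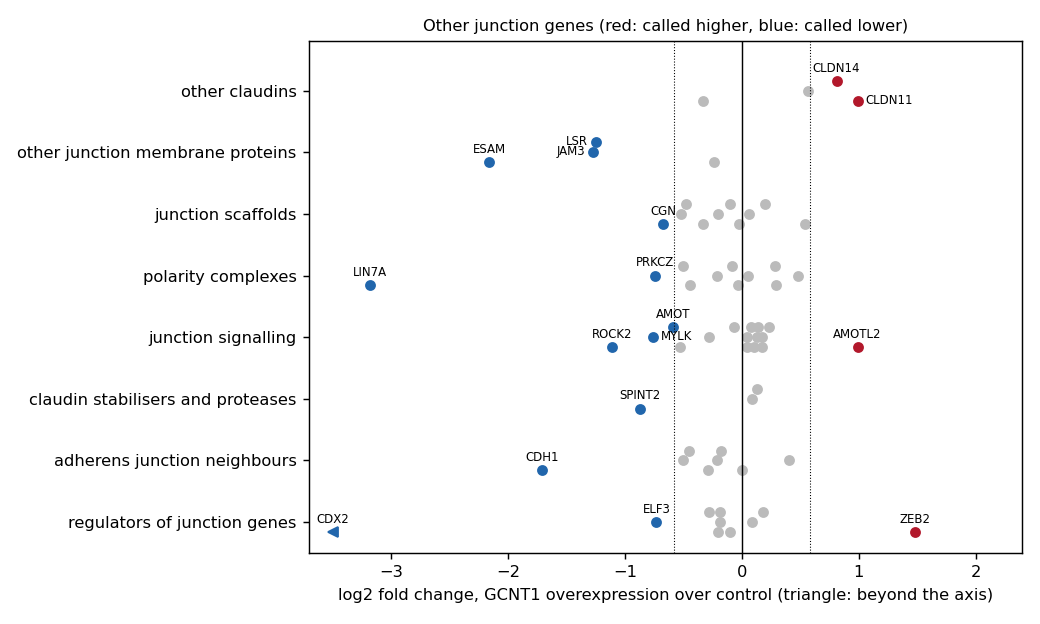
Each point is a counted partner gene in its list (vertical axis, 1 called gene is not drawn), at its log2 fold change of GCNT1 overexpression over control (horizontal axis), red where called higher, blue where called lower and grey otherwise, with dotted lines at the fold threshold. CDX2, which had no counts in any overexpressing library, is drawn as a triangle at the edge, and the 13 genes called lower lie to the left of 0.

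The genes whose pattern was most like that of CLDN15 were ZFAND5 and NNMT, by Pearson's r of log2 CPM over the 6 libraries (0.999959 and 0.999684). ZFAND5 had 1114, 1034 and 1062 counts in control and 1390, 1647 and 1693 with GCNT1, and NNMT, a methyltransferase of nicotinamide, had 6, 2 and 7 against 153, 175 and 193. Their log2 fold changes were 0.46 and 4.99, so the likeness is not in the size of the difference. In all, 1359 genes had an r above 0.95 with CLDN15. Because the CLDN15 values of each group lay close together, such an r mostly restates the group difference by which CLDN15 was called. ZFAND5 and NNMT were picked as the highest values among all counted genes, and shared regulation with CLDN15 was not tested. NNMT met the count filter through its overexpressing libraries alone, so a difference was built into its being counted.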

How the data were processed

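RNA was taken from 3 control and 3 GCNT1-overexpressing PC3 lines. The authors made stranded mRNA libraries, sequenced 75-base single reads and used Cutadapt for trimming, HISAT2 with hg38 for mapping and featureCounts for counting. The values the authors deposited are raw read counts, neither normalized nor pooled. The annotation, the use of strand, the treatment of reads with several positions and the filter on low counts are not given in the sources used here. Each gene reached 1.01 CPM in 3 or more libraries. All 6 columns were used, grouped by the labels.

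Genes were matched by Entrez identifier, and 12661 of 12703 had a symbol. Counts were analysed with edgeR 4.0.16 in R 4.3.3 (filterByExpr, which kept all genes, TMM, quasi-likelihood test, group as the single term), with Benjamini-Hochberg adjustment over 12703 genes. RPKM used MANE transcript lengths from GENCODE 44 and TMM-scaled depth. The log2 fold change is from the fit, and fold values are ratios 2 to its power. Promoters were RefSeq's. The alternatives were limma-voom (limma 3.58.1), DESeq2 1.42.0, glmTreat, the replicate block, scaling by RLE factors or by library size, leaving out each library, and filtering at 0.5 CPM in 3 libraries or not at all. In simulated counts over 12673 genes for this comparison, edgeR recovered 98% of 2-fold changes and glmTreat 86%. The changes were planted only in better-counted genes and with the same dispersion for every gene. These shares therefore do not cover genes with few counts. Libraries of a group differed by more than sampling noise (chi-square per degree of freedom 1.65 to 5.65), so each counted as 1 sample. Nothing in the labels says beyond "biol rep" how replicates were grown, and whether the lines of a group were transduced separately is not given. The p-values therefore measure the spread between these 6 libraries, which may be less than that between separately made lines.

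The members and lists were chosen with earlier results of these data known. By rule, the text names every member, every called gene of each list, every gene of a list with 3 or fewer counted, the 2 genes most like a called member, and GCNT1. CLDN3, CLDN23, CXADR, ROCK1, EPCAM, ZEB1, SNAI1, SNAI2, GRHL1, TCF3, TWIST1 and KLF4 were added after their values were seen, and the cell type markers come from a list of their own. Some of these values are not reported here. The floor of 3 counts and the Poisson interval cover counting error only.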

Additional observations from a re-analysis of the deposited data

How the results depend on the processing

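The number of tight junction genes called was 1 in all 14 alternatives, and the number past the adjusted p alone was 4 or 5, with CLDN12 as the fifth gene under library size scaling and without overexpressing library 1. Partner genes called numbered 18 in the fit reported, 13 with glmTreat, which left out CLDN14, JAM3, CGN, AMOT and ELF3, and 17 to 19 without 1 library. Across alternatives the log2 fold change was -0.53 to -0.31 for CLDN1, -0.48 to -0.36 for CLDN4, -0.27 to -0.20 for F11R and -0.22 to 0.33 for TJP1. With the replicate block CLDN15 was at 0.91 (edgeR adjusted p = 4.36e-05), 1 member and 18 partner genes were called, and no call of a member, a named partner gene or GCNT1 was lost. Deviations of same-numbered libraries correlated at -0.465, 0.0865 and -0.188, so the numbers do not pair them. Library size scaling in place of TMM moved the median of all genes by 0.06 on the log2 scale. Relative to the median of the 50 nearest genes, an alternative chosen after seeing the data, CLDN15 was at 0.85, CLDN4 at -0.54, CLDN1 at -0.49, F11R at -0.29, CLDN12 at 0.10 and TJP1 at 0.17. Depth limits TJP1, CLDN14, CLDN23, JAM3, LIN7A, CDX2 and GCNT1, each with fewer than 40 counts in every library.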
